A study of Dendroctonus valens with 12 samples.

Results

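The season difference of each transcript, January minus May, was compared between larvae and adults of the red turpentine beetle *Dendroctonus valens*. The compared quantity was (January larvae minus May larvae) minus (January adults minus May adults) on the scale log2(scaled FPKM + 1), and it is called the difference from here on. A value above 0 means that the January level, relative to May, was higher in larvae than in adults. Unigenes, the assembled transcripts of an insect without a genome in the sources used here, entered when their deposited FPKM was 1 or more in at least 3 larval and at least 3 adult libraries, which held for 10726 of 58956.

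The study collected late-instar larvae and adults from the field in January and in May. Each of the 12 libraries was made from 1 whole insect, with 3 insects in each of 4 groups: larvae labelled cold (January), larvae labelled normal (May), adults labelled cold (January) and adults labelled normal (May). No treatment or altered gene is named for any group, and no source used here gives their sex. January and May insects were also separate collections, so season and collection cannot be told apart. The p-values weigh the difference against the spread among insects within groups, taken as 1 shared spread over the 4 groups.

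*D. valens* bores under the bark of pines, where larvae and adults feed on phloem and both can pass the winter. Feeding beetles secrete glycosidases, esterases and peptidases to break down plant tissue, and adults in addition carry flight muscle, which depends on calcium channels and mitochondrial enzymes. Insects carry sugar in the blood as trehalose, which trehalase splits into glucose for use by tissues or for making cryoprotectants.

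FPKM are mapped fragments relative to unigene length and library total, so levels of different unigenes can be set side by side per length. Every level below is scaled FPKM, the deposited value divided by 1 factor for each library, and these factors were 0.401 to 0.601 in May larvae and 0.929 to 1.67 in the other 9 libraries. May larvae 1, 2 and 3 had 16681, 8291 and 8428 unigenes at 1 FPKM or more, and the other 9 libraries 15028 to 28292. The most abundant unigene took 12.4, 12.4 and 28.5% of the FPKM in May larvae and 4.84 to 15.1% in the other 9. The part of this composition in the differences below was not tested. January larva 3 stood apart: its values correlated with the January adults at r = 0.73, 0.80 and 0.83 and with January larvae 1 and 2 at r = 0.70 and 0.78 (across 10726 unigenes, which are not replicates). January adult 3 likewise correlated with January larva 3 at r = 0.83 and with January adults 1 and 2 at r = 0.68 and 0.78. May larva 1 correlated with the other May larvae at r = 0.80 and 0.78, which correlated with each other at 0.90. The larval cuticle protein LCP-17, TRINITY_DN12641_c0_g1, was listed at 39.89 to 544.89 deposited FPKM in larvae and 1.3 to 14.46 in adults, in the direction of the stage labels. The cuticular protein 15.7 named adult-specific, TRINITY_DN17968_c0_g1, was listed at 2.27 to 5.64 in January larvae and 0 to 2.51 in adults, and did not follow its name. The larval cuticle protein 8-like unigene, TRINITY_DN20921_c0_g5, was low throughout, at 0 to 1.6 in larvae and 0 to 2.2 in adults. It did not follow its name either.

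A whole insect can hold other animals. The 61 unigenes whose best match is a nematode took 0.00765 to 0.0930% of the FPKM in January larvae, 0.00108 to 0.248% in May larvae, 0.122 to 0.245% in January adults and 0.0114 to 0.0527% in May adults. Of these 7 were tested in limma and 0 were called (0 at an unadjusted p under 0.05). Another 4823 unigenes reached 1 FPKM among larvae in January larva 3 and May larva 1 and were under 0.1 in the other 4, and the filter left 0 of them in the test. The part of nematodes or other organisms in the differences below was not tested.

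The difference passed the thresholds, a Benjamini-Hochberg adjusted p under 0.01 in limma and a size of at least 1 log2 unit, for 1223 unigenes (11.4% of those tested). It was above 0 for 499 of them (4.65%) and below 0 for 724 (6.75%). The called unigenes above 0 had a median difference of 2.98, with sizes of 1.51 to 10.76, and those below 0 a median of -3.11, with sizes of 1.62 to 11.34. All 1223 kept one sign in all 81 choices of 1 library from each group, as did 14.0% of all tested unigenes above 0 and 15.1% below 0. The median difference of all 10726 was -0.04.

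**Figure D1:**
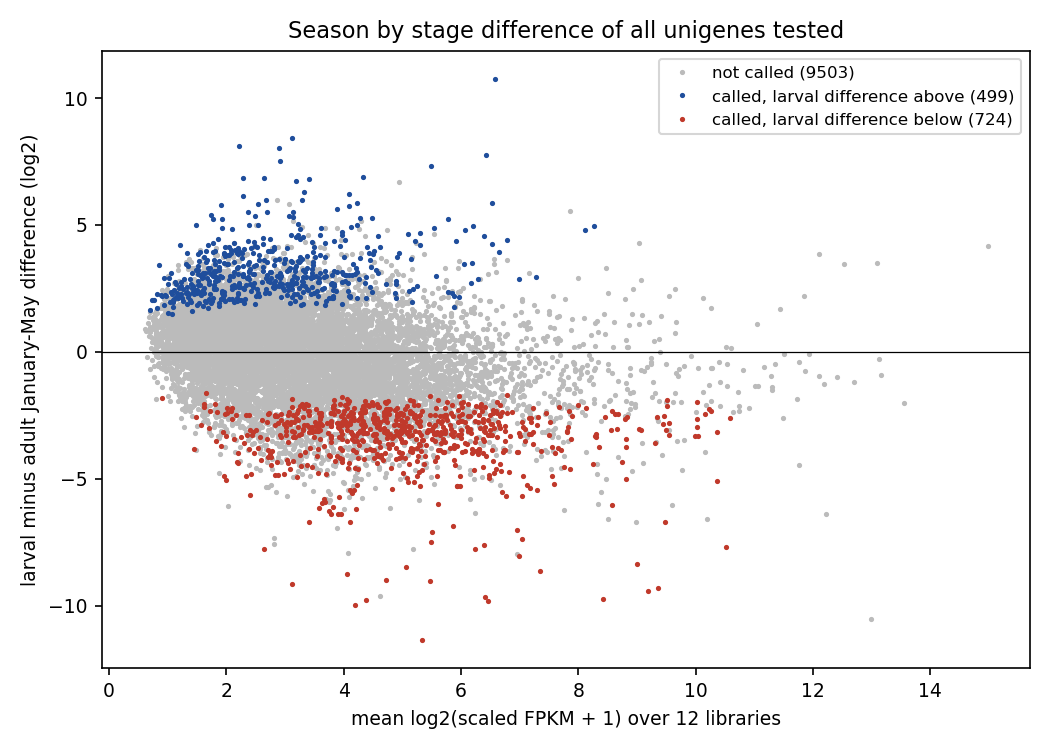
Difference (vertical axis, log2) against the mean log2(scaled FPKM + 1) over 12 libraries (horizontal axis) for each of 10726 unigenes. The 499 called above 0 are blue, the 724 called below 0 are red, and called values begin at sizes of 1.51 and 1.62.

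The called unigenes had 2 main shapes. Of the 499 above 0, May larvae had the lowest mean for 471 (94.4%, against 43.1% of all tested). May adults had the highest mean for 334 of them (66.9%, against 22.8%). The January mean was the higher one in larvae and the lower one in adults for 409 (82.0%), against 2141 (20.0%) of all tested. Of the 724 below 0, May larvae had the highest mean for 693 (95.7%, against 31.7% of all tested). May adults had the lowest mean for 532 of them (73.5%, against 26.5%). The January mean was the lower one in larvae and the higher one in adults for 568 (78.5%), against 2279 (21.2%) of all tested. These orders describe the means behind the calls, and neither season difference was tested alone. A difference that is called must put some groups at the ends of the order, so these shares carry no test.

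Most calls below 0 depended on the scaling. With FPKM as deposited 1121 were called above 0 (10.5%) and 103 below (0.960%, median of all unigenes 0.98), with an equal FPKM sum per library 1702 (15.9%) and 49 (0.457%, median 1.40), with median of ratios over matches to the beetle *Dendroctonus ponderosae* 496 (4.62%) and 544 (5.07%, median 0.09), and with median of ratios over the tested unigenes 562 (5.24%) and 652 (6.08%, median 0.05). The share of calls above 0 was 40.8% as reported and 91.6, 97.2, 47.7 and 46.3% in that order. Under all 5 scalings 461 of the 499 unigenes above 0 (4.30% of those tested) stayed called and 48 of the 724 below 0 (0.448%). With each of the 12 libraries left out in turn 132 (1.23%) and 252 (2.35%) stayed called. In the text below, a unigene is said to hold when its call stood under all 5 scalings and with each of the 12 libraries left out in turn. This was so for 132 above 0 and 43 below 0. FPKM as deposited and equal sums moved the median of all unigenes to 0.98 and 1.40, which favours calls above 0. The scaling condition left all 132 above 0 and 43 of the 252 below 0, so holding is a weaker condition above 0.

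The number of calls also moved with single insects. It was 405 without May adult 3, 603 without May adult 1, 620 without January larva 3, 637 without May larva 1, 688 without January adult 2, 735 without January larva 2 and 801 without May adult 2, and 831 to 1354 without any one of the other 5 libraries. The largest count, 1354, came without January adult 3. Above 0 the count was 317 without January larva 1 and 321 without May larva 3. Without January larva 3 the split was 250 above and 370 below, and 236 and 368 of these were among the calls from all 12 libraries. Without both January larva 3 and May larva 1 it was 39 and 63.

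**Figure D2:**
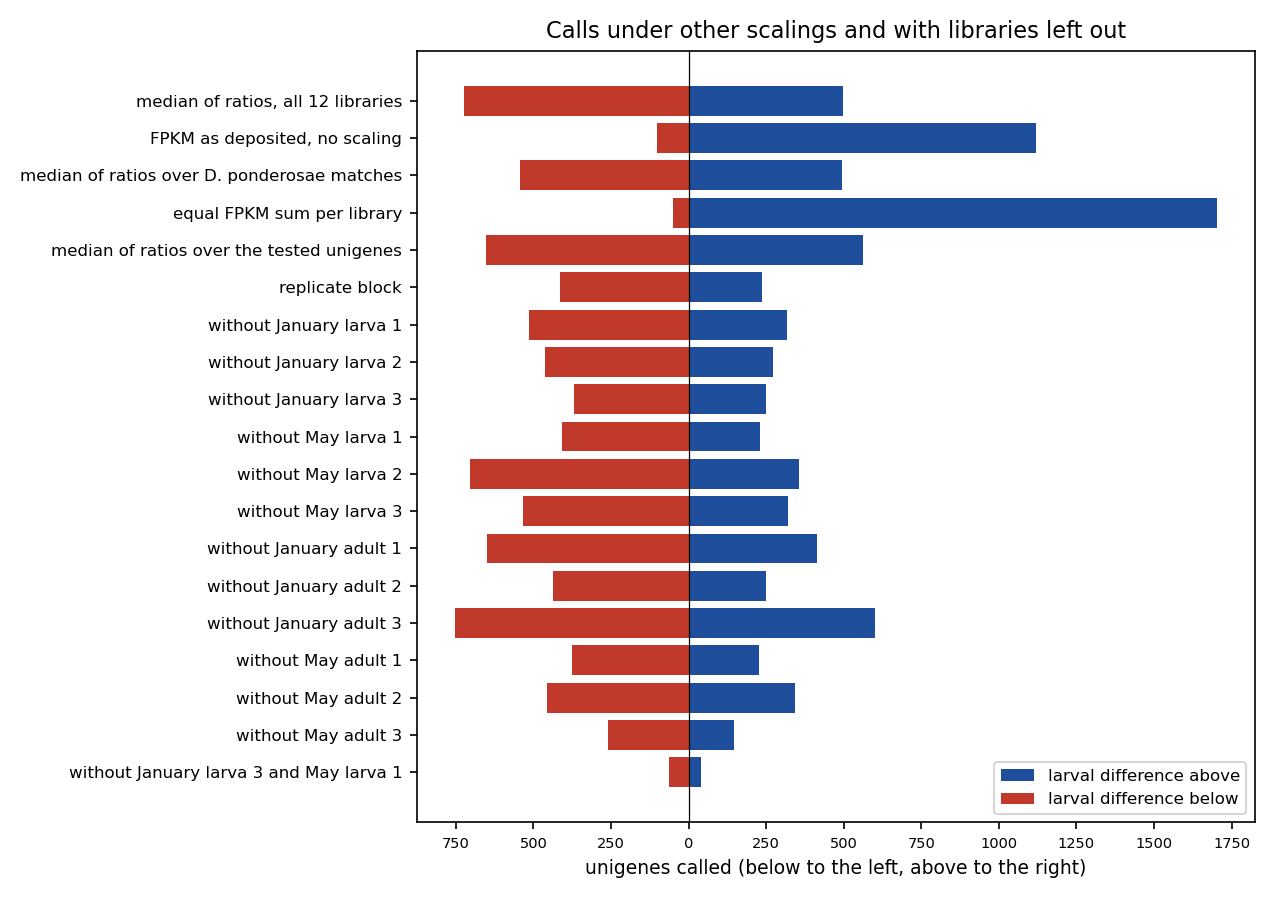
Unigenes called with the difference above 0 (blue, to the right) and below 0 (red, to the left) for each scaling and with libraries left out. The reported split is 499 and 724, the equal FPKM sum gives 1702 and 49, and leaving out May adult 3 gives 145 and 260.

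The filter has its own effect on calls above 0. A unigene with no May larva at 1 FPKM passed only through the 3 January larvae, and 305 of the 499 were of this kind, among 1918 tested ones (15.9%), against 194 of the other 8808 (2.20%). Of the 5278 unigenes at 1 FPKM or more in all 12 libraries, 95 (1.80%) were called above 0 and 640 (12.1%) below 0. Where a library is listed at 0, the added 1 holds the size of a difference down.

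Names came from part of the study's annotation, 2652 unigenes, so a unigene without a name here may have one in the full annotation. A name was held for 64 of the 499 called above 0 and for 110 of the 724 called below 0. The named unigenes with the largest differences above 0 have varied roles and are ordered by them below. Of the 15 largest, 13 hold, and 14 come from the table of the genes that the study chose on these samples as changed in both stages, so their presence is not independent evidence. In 8 of the 15 no May larva reached 1 deposited FPKM, so they entered the test in larvae only through the 3 January larvae, where they were higher: transmembrane protein 35A, protein disulfide-isomerase A5, nuclear factor 1 X-type, Skeletor, trehalase, both calcium channel subunits and Rap1. A single whole insect gives 1 RNA pool, in which fewer cells of a type and less RNA per cell cannot be told apart.

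Small GTPases and their partners switch signals at membranes. Rab-23 (TRINITY_DN24882_c0_g1), a negative regulator of Hedgehog signalling in mouse, had scaled FPKM of 16.4, 9.38 and 13.4 among January larvae, 0.972, 1.70 and 0.208 in May larvae, 8.64, 10.3 and 42.2 in January adults, and 87.3, 144 and 113 in May adults. January larvae lay above all May larvae, and January adults below all May adults. The difference was 5.64 (standard error 0.78, adjusted p = 0.00147), and it holds. The gamma-e subunit of a G protein (TRINITY_DN23556_c0_g1), which serves photoreceptors in *Drosophila*, had the same order, with 1.47 to 2.29 in May larvae and 34.6 to 56.9 in May adults and 4.21 to 26.1 in the January groups. Its difference was 4.87 (standard error 0.64, adjusted p = 0.00137). Rap1 (TRINITY_DN21883_c1_g1), a GTPase of cell adhesion, stood at 10.4 to 26.7 in January larvae, 1.18 to 1.64 in May larvae, 12.8 to 15.7 in January adults and 24.2 to 33.5 in May adults, with a difference of 3.74 (standard error 0.50). Both hold.

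Mitochondrial and nucleotide enzymes came next. The alpha subunit of NAD isocitrate dehydrogenase (TRINITY_DN21233_c1_g1), an enzyme of the citrate cycle, stood at 27.4, 26.5 and 21.2 in January larvae, 5.76, 9.97 and 2.35 in May larvae, 37.4, 38.5 and 32.5 in January adults, and 219, 175 and 288 in May adults. The difference was 4.64 (standard error 0.57, adjusted p = 0.00103). The January insects of both stages were close to each other, and the May insects were far apart. Adenylosuccinate synthetase (TRINITY_DN23265_c0_g1), which makes the precursor of AMP, stood at 20.5 to 41.1 in January larvae and 1.97 to 3.46 in May larvae, against 14.2 to 17.6 in January adults and 42.5 to 45.7 in May adults (difference 4.42, standard error 0.47, adjusted p = 0.000742). Both hold. A subunit of NADH dehydrogenase (TRINITY_DN22443_c2_g2), which feeds electrons into the respiratory chain, had a difference of 2.68 (standard error 0.37, adjusted p = 0.00144) with narrow groups, from 8.88 to 11.8 in May larvae and from 23.3 to 29.4 in January larvae. It holds as well.

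Trehalase was the sugar-splitting enzyme of this set. TRINITY_DN23361_c0_g1 stood at 6.62, 6.97 and 6.29 in January larvae, 0.748, 1.42 and 1.14 in May larvae, 3.65, 3.35 and 5.97 in January adults, and 14.7, 33.6 and 19.0 in May adults. Larvae were higher in January and adults in May, with no overlap inside a stage. The difference was 3.96 (standard error 0.51, adjusted p = 0.00121), and it holds. Its deposited FPKM in May larvae were 0.30, 0.85 and 0.55, so it passed the filter only through the January larvae. A second trehalase-like unigene (TRINITY_DN31308_c0_g1), whose best match is a moth, was listed at 1.78 in January larva 1 and at 0 in the other 11 libraries, and was not tested. The bifunctional 6-phosphofructo-2-kinase (TRINITY_DN24049_c0_g4), which sets the level of a glycolysis activator, had a difference of 3.47 (standard error 0.67, adjusted p = 0.00483). Its call was lost without January larva 1 or 2, May larva 1 or 3, or May adult 2 or 3 (adjusted p up to 0.0164).

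Some genes known from muscle and from calcium channels were also called above 0. Myocyte-specific enhancer factor 2 (TRINITY_DN20336_c0_g1), the transcription factor that switches on muscle genes, stood at 20.3, 36.4 and 20.9 in January larvae, 4.84, 5.16 and 3.22 in May larvae, 20.7, 28.2 and 30.2 in January adults, and 138, 53.4 and 120.2 in May adults. The difference was 4.13 (standard error 0.57, adjusted p = 0.00147), and it holds. The pore subunit alpha-1 of the muscle calcium channel (TRINITY_DN26185_c0_g1) stood at 3.09 to 4.93 in January larvae, 0.187 to 0.966 in May larvae, 2.62 to 4.09 in January adults and 9.47 to 20.9 in May adults. Its difference was 3.70 (standard error 0.52, adjusted p = 0.00153). Its partner class, the alpha-2/delta subunit that carries calcium channels to the membrane (TRINITY_DN23276_c0_g1), had a difference of 3.80 (standard error 0.62, adjusted p = 0.0024). Both hold. The ryanodine receptor (TRINITY_DN27713_c9_g1), the channel that releases stored calcium for contraction, had a difference of 3.39 (standard error 0.67, adjusted p = 0.0054), which stayed called only without May larva 2, January adult 1 or January adult 3 (adjusted p up to 0.0157 without others). Troponin I (TRINITY_DN26658_c1_g1), a thin filament protein, was abundant at 265 to 1645 and was not called (1.18, standard error 0.81, adjusted p = 0.307).

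Other named members above 0 act in membranes, in the endoplasmic reticulum or in the nucleus. Transmembrane protein 35A (TRINITY_DN21631_c1_g1), a chaperone of acetylcholine receptors in mammals, was at 0.0499 to 0.0623 in May larvae, 6.55 to 11.3 in January larvae, 2.77 to 4.5 in January adults and 16.8 to 20.9 in May adults (difference 5.34, standard error 0.43, adjusted p = 0.000676). Protein disulfide-isomerase A5 (TRINITY_DN24568_c0_g1), which forms disulfide bonds in secreted proteins, had a difference of 5.34 with a standard error of 0.71. Nuclear factor 1 X-type (TRINITY_DN25084_c1_g3), a transcription factor, had 4.61 (standard error 0.68), and syndecan-2 (TRINITY_DN22588_c1_g1), a proteoglycan of the cell surface, 4.36 (standard error 0.56). These 4 hold. Skeletor (TRINITY_DN21933_c0_g1), a spindle matrix protein of *Drosophila*, had 4.03 (standard error 0.78), called without January larva 1, May larva 2, January adult 1 or 3, or May adult 2 and lost without each of the other 7 (adjusted p up to 0.0158). The artichoke-like protein (TRINITY_DN20899_c0_g1) had 3.89 (standard error 0.80) and kept its call only without May larva 2, January adult 3 or May adult 1 or 2 (up to 0.0156 without others).

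**Figure D3:**
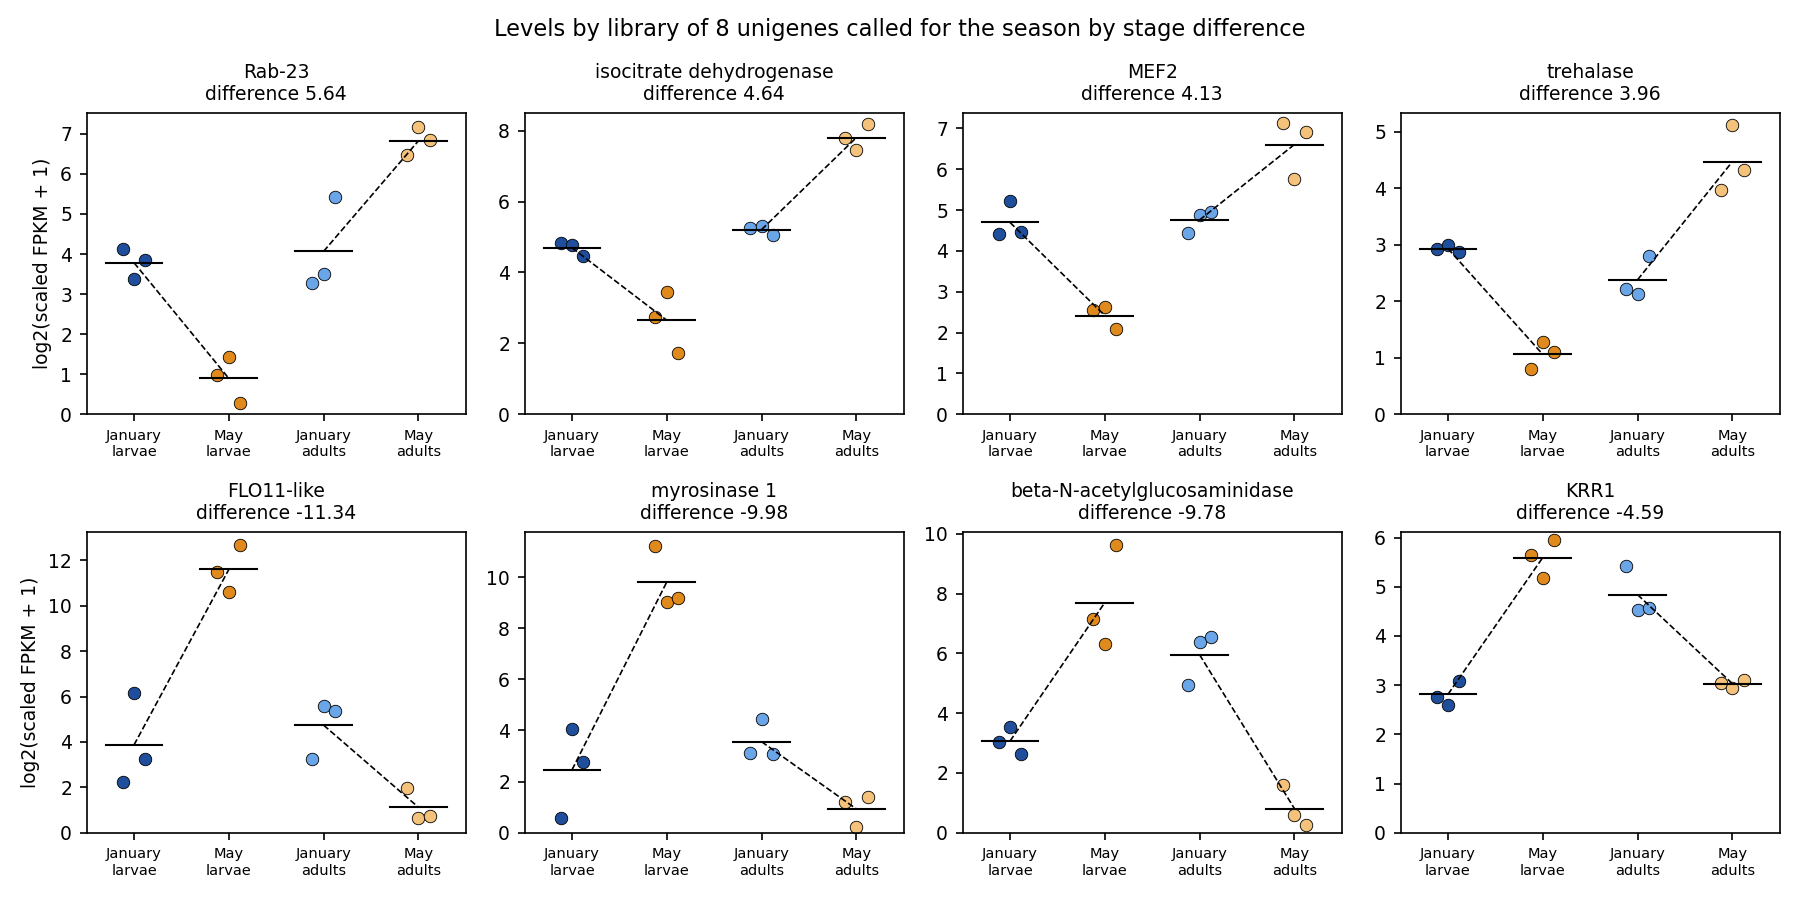
Each point is 1 library, with log2(scaled FPKM + 1) on the vertical axis and the 4 groups on the horizontal axis. Short lines are group means, and dashed lines join January with May inside a stage. The upper 4 unigenes have differences of 5.64, 4.64, 4.13 and 3.96, and the lower 4 have -11.34, -9.98, -9.78 and -4.59.

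The named unigenes with the largest differences below 0 are given next, beginning with an adhesin-like protein and glycosidases. Of the 15 largest, 8 hold, and 14 come from the table chosen by the study. The count that holds is not comparable with that above 0, where holding is a weaker condition. The FLO11-like unigene (TRINITY_DN22828_c3_g1), named after a yeast adhesin, stood at 3.70, 69.7 and 8.44 in January larvae, 2904, 1574 and 6497 in May larvae, 8.48, 47.0 and 40.7 in January adults, and 2.90, 0.570 and 0.687 in May adults. Larvae were lower in January and adults higher, without overlap. The difference was -11.34 (standard error 1.38, adjusted p = 0.00103), and it holds.

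Glycosidases cut sugar chains of plant or insect origin. Myrosinase 1 (TRINITY_DN22028_c0_g1), of the beta-glucosidase family that splits defence glycosides of plants, stood at 0.480, 15.8 and 5.74 in January larvae, 2399, 518 and 579 in May larvae, 7.79, 21.1 and 7.45 in January adults, and 1.28, 0.159 and 1.61 in May adults (difference -9.98, standard error 1.23, adjusted p = 0.00103). Its neighbour in the assembly, TRINITY_DN22028_c0_g3, had -7.75 (standard error 0.94, adjusted p = 0.00103), and reads of near-identical copies may be shared between them. The chitooligosaccharidolytic beta-N-acetylglucosaminidase (TRINITY_DN20829_c0_g1), which trims chitin fragments, stood at 7.24, 10.6 and 5.15 in January larvae, 143, 78.9 and 779 in May larvae, 29.6, 81.3 and 93.4 in January adults, and 2.02, 0.497 and 0.190 in May adults. Its difference was -9.78 (standard error 1.09, adjusted p = 0.00079). These 3 hold. Another myrosinase, TRINITY_DN20463_c0_g1, had May adults at 13.9 to 62.8 and January adults at 1.51 to 5.57, so both stages were lower in January, with a difference of -4.22 (standard error 0.84, adjusted p = 0.0055). Its call was lost with FPKM as deposited, with equal sums, and without January larva 1 or 3, May larva 1 or 3, January adult 2 or 3, or May adult 2 or 3 (adjusted p up to 0.0166).

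Acid phosphatase, glucan-binding and nucleoside enzymes followed. The Acph-1-like acid phosphatase (TRINITY_DN19074_c0_g1) stood at 774, 549.8 and 139 in January larvae, 4619, 2118 and 8241 in May larvae, 269, 1845 and 2577 in January adults, and 16.0, 86.7 and 31.9 in May adults (difference -8.36, standard error 1.37, adjusted p = 0.00246). A beta-1,3-glucan-binding protein (TRINITY_DN21252_c0_g1), of a family that recognises microbial glucans in insects, stood at 76.5 to 184 in January larvae, 1036 to 1516 in May larvae, 71.9 to 142 in January adults and 14.3 to 34.1 in May adults (difference -5.66, standard error 0.61, adjusted p = 0.000773), and it holds, as does the acid phosphatase. The January groups of both stages lay between May larvae and May adults. A second unigene of that name (TRINITY_DN22783_c1_g4) had -4.58 (standard error 0.84, adjusted p = 0.00396), lost with FPKM as deposited, with equal sums and without January larva 3 or May larva 1. Beta-galactosidase-1-like protein 2 (TRINITY_DN24586_c0_g3), a galactosidase, had -4.86 (standard error 0.79, adjusted p = 0.00238) and, of the scalings, lost its call with equal sums. Purine nucleoside phosphorylase 1 (TRINITY_DN19630_c0_g1) was under 0.5 in all 6 January insects, at 53.5 to 225 in May larvae and at 2.90 to 5.03 in May adults, so both stages were lower in January, with a difference of -4.80 (standard error 0.66, adjusted p = 0.00143), which holds.

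Enzymes of families that act on foreign compounds, and a glucose dehydrogenase, were among the 15 largest below 0 without holding. UDP-glucuronosyltransferase 1-7C (TRINITY_DN24570_c0_g1), which attaches sugar acids to foreign compounds, had -4.46 (standard error 0.69, adjusted p = 0.00196) and, among the scalings and single libraries left out, lost its call only with equal FPKM sums. Venom carboxylesterase-6 (TRINITY_DN19014_c0_g1) had -6.39 (standard error 1.44, adjusted p = 0.00935), and was called under no other scaling and only without January larva 2 or May adult 1. FAD glucose dehydrogenase (TRINITY_DN19851_c0_g1) had -5.98 (standard error 1.35, adjusted p = 0.0096), and was called under no other scaling and only without January larva 2. The liver carboxylesterase match (TRINITY_DN23706_c1_g1) had -4.91 (standard error 0.997, adjusted p = 0.00603), lost with FPKM as deposited and with equal sums, and called only without January larva 2 or January adult 1. In these 3 the May adults overlapped the January adults or lay above them, and the 3 May larvae lay far above every other insect. For each of the 3, leaving out May larva 1, 2 or 3 or January larva 3 ended the call.

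Other named unigenes called below 0 act inside the cell and in its membrane. KRR1 (TRINITY_DN20206_c0_g1), which processes the small ribosomal subunit, stood at 5.75, 5.06 and 7.53 in January larvae, 49.0, 35.4 and 61.1 in May larvae, 42.0, 22.1 and 22.6 in January adults, and 7.26, 6.67 and 7.63 in May adults. The difference was -4.59 (standard error 0.48, adjusted p = 0.000729), and it holds. January larvae and May adults overlapped in level, and so did May larvae and January adults. FKBP8 (TRINITY_DN22758_c0_g1), a prolyl isomerase of the outer mitochondrial membrane, had -4.41 (standard error 0.47), cyclin-dependent kinase 8 (TRINITY_DN22268_c1_g4), a kinase of the Mediator complex, -3.99 (standard error 0.46), and 6-phosphogluconate dehydrogenase (TRINITY_DN22402_c0_g1), of the pentose phosphate pathway, -3.87 (standard error 0.44). The helicase CG8611 match (TRINITY_DN23550_c0_g2) had -3.85 (standard error 0.42). These 4 kept their calls with every library left out and, of the scalings, lost them only with equal FPKM sums. The dopamine transporter match (TRINITY_DN23456_c0_g1), which clears dopamine in *Drosophila*, behaved in the same way (-4.54, standard error 0.51, adjusted p = 0.00079), at 746 to 1300.2 in May larvae and 31.4 to 47.9 in May adults.

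**Figure D4:**
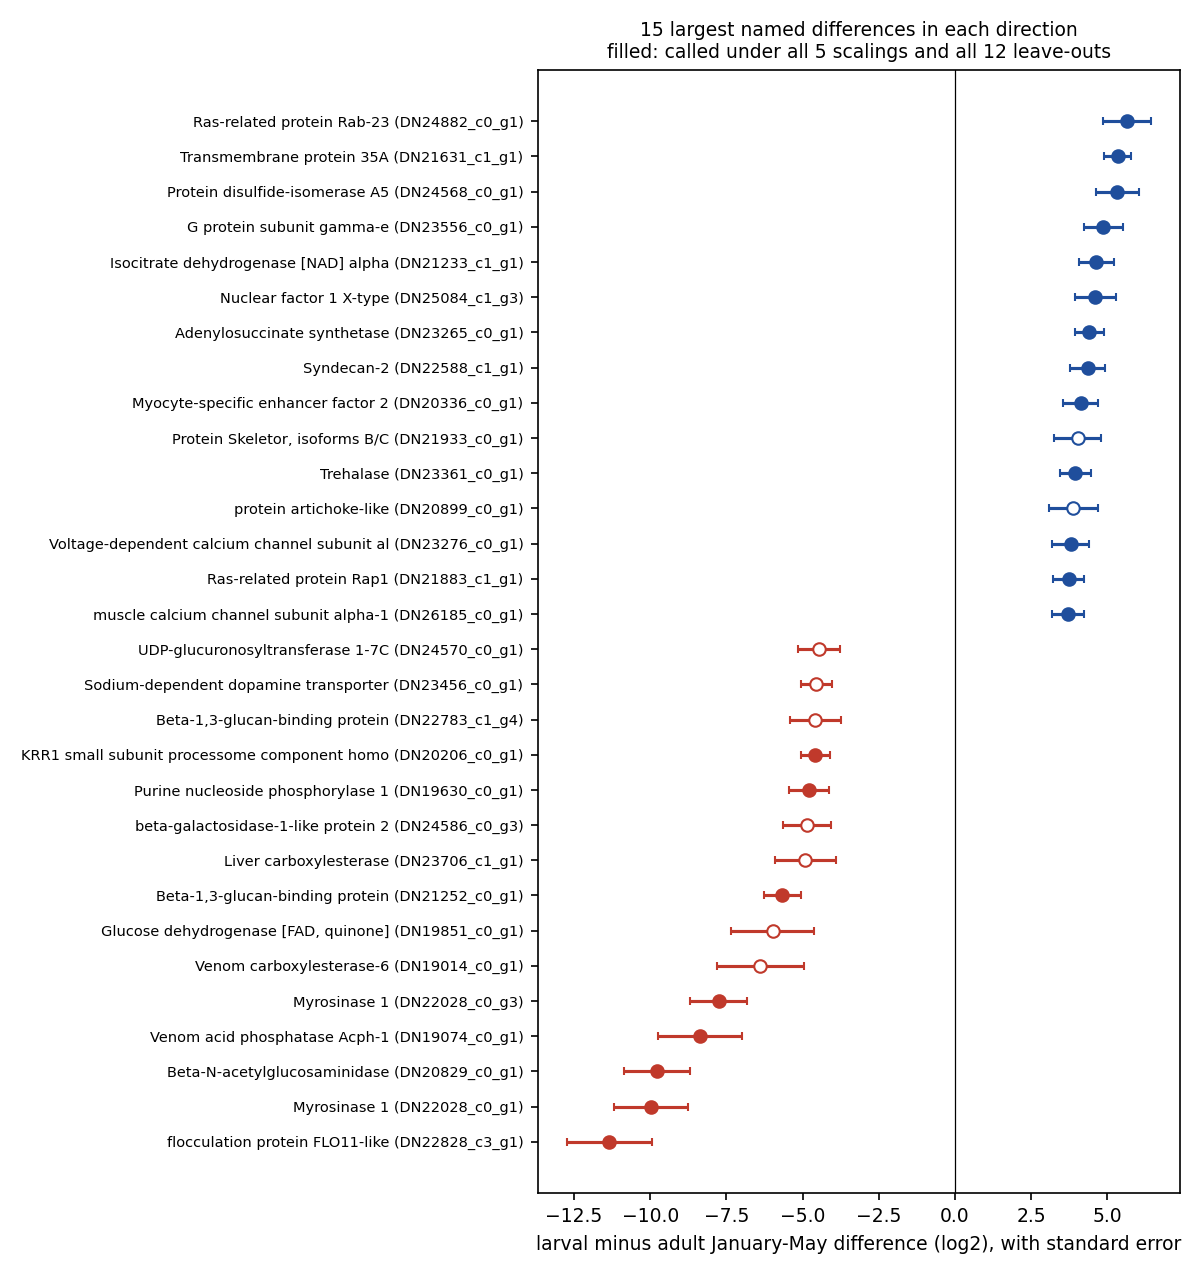
Difference (horizontal axis, log2) with its standard error for the 15 named unigenes with the largest values in each direction. Filled points are called under all 5 scalings and with each library left out, 13 of 15 above 0 and 8 of 15 below 0.

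Gene lists were set by keyword in the names of 2652 annotated unigenes, of which 1498 were tested. These are only part of the unigenes that the study annotated, so the lists are incomplete. Of the 624 tested ones in the study's own table, 73 (11.7%) were called above 0 and 90 (14.4%) below, and of the 874 others 28 (3.20%) and 56 (6.41%). The first set was chosen by the study on these samples, so its larger shares are not independent. List counts are read beside 4.65% above and 6.75% below over all unigenes, and list medians beside -0.04.

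The 3 lowest medians among lists with at least 8 members tested belonged to myrosinase-type beta-glucosidases, plant cell wall enzymes and lysosomal hydrolases. Of 8 tested myrosinase-type beta-glucosidases 3 were called below 0 and 0 above (median -3.41). Plant cell wall enzymes had 1 of 8 below (median -3.18): endopolygalacturonase A (TRINITY_DN23888_c0_g5), which cuts pectin, with -3.17 (standard error 0.47, adjusted p = 0.00177), lost with FPKM as deposited and with equal sums. The uncalled member with the highest mean level, an endoglucanase (TRINITY_DN22700_c3_g2) that cuts cellulose, had -5.02 with a standard error of 1.51 and was not called (adjusted p = 0.0313, or 0.00485 without January larva 2, where it is called). Of 20 lysosomal and phosphatase hydrolases 5 were below 0 and 1 above (median -2.05), and 3 of the 5 stood under all scalings. The member above 0 was a GILT-like protein (TRINITY_DN23675_c0_g2), of thiol reductases, with 2.79 and no May larva at 1 FPKM. All members of the first 2 lists come from the study's table. The medians of these 3 lists were below 0 under all 5 scalings.

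Detoxification enzymes and efflux pumps had 6 of 27 below 0 and 0 above (median -1.69, but 0.22 with equal FPKM sums), all 6 from the study's table. With January larva 3 left out 2 of the 6 remained in the count. Under equal sums 0 were below and 4 above, where 15.9% of all unigenes were above. All unigenes had medians of 0.98 with FPKM as deposited and 1.40 with equal sums, and the median of each list in this paragraph stayed below them. Sugar hydrolases and transporters had 3 of 20 below and 1 above (median -1.35, but 0.04 with FPKM as deposited and 0.62 with equal sums), and the 3 went to 0 without January larva 3. With FPKM as deposited and with equal sums the list had 4 above and 0 below, beside 10.5% and 15.9% above over all unigenes. Its 1 member above, trehalase, passed the filter only through the January larvae. Digestive peptidases had 0 of 21 called in either direction in limma, with 5 at an unadjusted p under 0.05 (median -0.66, but 0.72 with FPKM as deposited and 1.33 with equal sums). Their member with the highest mean level, a brachyurin-like serine protease (TRINITY_DN18826_c0_g1), had -0.57 with a standard error of 2.23 (adjusted p = 0.868), its May larvae ranging from 274 to 13849.7. Digestive cysteine proteinase 1 (TRINITY_DN18927_c0_g1), of the same list, had -0.66 (standard error 1.21, adjusted p = 0.714).

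The lists of ribosome, cell division and chaperone genes had medians below 0 that turned above 0 with FPKM as deposited and with equal sums. Under both they stayed below the medians of all unigenes, 0.98 and 1.40. Ribosome and translation had 6 of 27 below and 0 above (median -0.88). All 6 stayed called with each library left out and none did with FPKM as deposited or equal sums, where the list's median was 0.42 and 0.98 beside 0.98 and 1.40 for all unigenes. Ribosomal protein L8 (TRINITY_DN19274_c1_g3) had -3.61 and L23a (TRINITY_DN20985_c0_g1) -3.32, with May larvae at 2215 to 5234 in these 2 and May adults at 174 to 343. Cell division and DNA replication had 4 of 16 below (median -1.03, but 0.05 with FPKM as deposited and 0.36 with equal sums), among them flap endonuclease 1 (TRINITY_DN23056_c0_g2) with -3.74 and thymidylate synthase (TRINITY_DN21926_c1_g2) with -3.22, and 2 of the 4 remained in the count without January larva 3. Cyclin-dependent kinase 8, also counted there, acts in transcription. Chaperones had 3 below and 1 above of 13 (median -0.98, but 0.24 and 0.49 in the same order), and the 1 above had no May larva at 1 FPKM. The uncalled one with the highest mean level, an HSP70 (TRINITY_DN26176_c0_g3) with 3495 to 6672 in May larvae, was not called (-4.11, standard error 1.71, adjusted p = 0.0988).

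Muscle and actin had 3 of 10 above and 0 below (median 1.69), the muscle calcium channel, the ryanodine receptor and beta-centractin (TRINITY_DN22805_c0_g2, 2.76), the last of which belongs to the dynactin motor complex and not to muscle. The first 2 passed the filter in larvae only through the January insects, as did 4 of the 10, so the count cannot be read against 4.65%. Of the 3 called, the calcium channel is the 1 called with each library left out. The list's median stayed above that of all unigenes under each scaling. It includes the 4 members that passed only through the January insects, so it cannot be read against all unigenes either. Kinases and phosphatases had 5 of 22 above and 0 below (median 0.79), including JNK (TRINITY_DN22432_c1_g3), the stress kinase, with 2.44, and the tyrosine phosphatase type 4 (TRINITY_DN24243_c2_g5) with 2.95, and all 5 stood under every scaling. Of these 5, 3 stayed called with each library left out. JNK lost its call without May larva 1 or May adult 1, 2 or 3 (adjusted p in limma up to 0.0152). Of the 5, 2 had no May larva at 1 FPKM, as did 6 of the 22 members, so neither this count nor the median can be read against all unigenes. Of the other 16 members 3 were called above (18.8%), against 2.20% of all such unigenes. Mobile elements had 4 above and 1 below of 10 (median 1.82), and 1 above without January larva 3. All 4 were among the 5 members with no May larva at 1 FPKM, which had to be higher in January larvae to be tested, and 0 of the other 5 were called above. The median of mobile elements includes those 5 members, so it cannot be read against that of all unigenes. Neural receptors and channels were split at 3 and 3 of 17, and the 3 above had no May larva at 1 FPKM either.

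**Figure D5:**
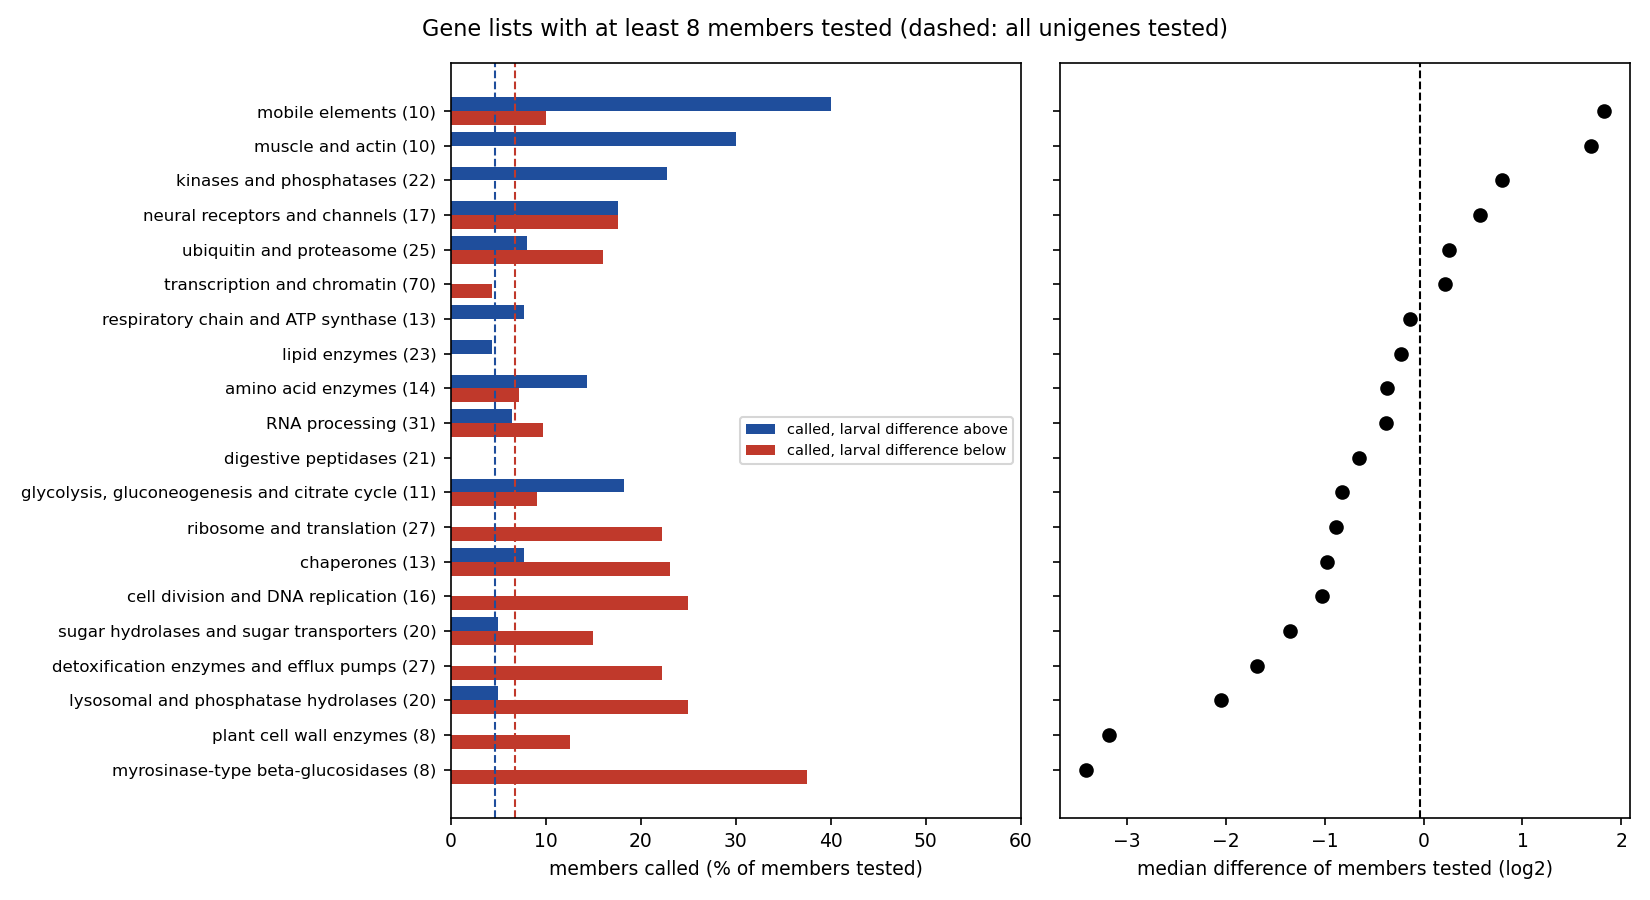
Share of tested list members called above 0 (blue) and below 0 (red), left, and the median difference of the members, right, for lists with at least 8 members tested (number in brackets). Dashed lines give all tested unigenes, 4.65% above, 6.75% below and a median of -0.04.

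The remaining lists were called in both directions or in few members. All their medians below 0 turned above 0 with FPKM as deposited and with equal sums, where all unigenes had medians of 0.98 and 1.40. Those of lipid enzymes and the respiratory chain also did so over the *D. ponderosae* matches. Transcription and chromatin had 3 of 70 below and 0 above (median 0.21), lipid enzymes 1 of 23 above (median -0.23), the respiratory chain and ATP synthase 1 of 13 above (median -0.14), and RNA processing 2 above, both with no May larva at 1 FPKM, and 3 below of 31 (median -0.38). Amino acid enzymes had 2 above and 1 below of 14 (median -0.37), glycolysis, gluconeogenesis and the citrate cycle 2 and 1 of 11 (median -0.83), and ubiquitin and proteasome 2 and 4 of 25 (median 0.26). Among amino acid enzymes, and in ubiquitin and proteasome, 1 of the 2 above had no May larva at 1 FPKM. The 5 tested members of cuticle and chitin had 0 calls in limma, with 1 at an unadjusted p under 0.05. Its peritrophin-1 (TRINITY_DN24281_c0_g1), of the gut lining, had -5.80 with a standard error of 1.37 and an adjusted p of 0.0115, just outside the threshold, and was called without January larva 1 or January adult 1 (adjusted p down to 0.00622).

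The study designed quantitative PCR primers for 15 unigenes, candidates it picked with these libraries in view, and all 15 were tested here. Of them 1 was called above 0 and 3 below, beside 4.65% and 6.75% of all unigenes tested. One of the 3, TRINITY_DN27539_c3_g1, is not among the genes that the paper lists as measured by quantitative PCR. The primers of those called are shown because they mark the stretch that the study set out to amplify. They are in lower case with the last 5 bases, the end that the polymerase extends, in capitals. The calls themselves rest on FPKM of the whole unigene.
TRINITY_DN22439_c0_g5 forward: ctgcggaaatcgaatCTGGC
TRINITY_DN22439_c0_g5 reverse: gtcttggggagttggGACAG
TRINITY_DN20229_c0_g1 forward: tgcagtggagattggAGCAG
TRINITY_DN20229_c0_g1 reverse: tgttgacgccattagCCACT
TRINITY_DN27207_c0_g1 forward: gcaatgaataagctgGGCGG
TRINITY_DN27207_c0_g1 reverse: agatcatcagcgtgtGCCAA
TRINITY_DN27539_c3_g1 forward: attgcatcctggggtTGGAG
TRINITY_DN27539_c3_g1 reverse: cgtagtagctggtgcCGTAG

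The unigene TRINITY_DN22439_c0_g5, which matches an uncharacterized *D. ponderosae* protein, stood at 586, 758 and 278 in January larvae, 9343, 2022 and 7250.4 in May larvae, 1094, 2249 and 2136 in January adults, and 44.3, 18.6 and 19.1 in May adults. Its season order was opposite in the 2 stages, with a difference of -9.43 (standard error 0.89, adjusted p = 0.000676). TRINITY_DN20229_c0_g1, also uncharacterized, stood at 1779, 16016 and 3585 in January larvae, 146170.0, 219555 and 62334 in May larvae, 30.4, 234 and 82.2 in January adults, and 3.31, 1.16 and 4.32 in May adults. It was a larval transcript of very high level, with a difference of -9.29 (standard error 1.27, adjusted p = 0.00143). Both hold.

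TRINITY_DN27207_c0_g1, which the study names a putative glutamate synthase, an enzyme that makes glutamate from glutamine, stood at 37.0, 36.9 and 32.5 in January larvae, 4.54, 4.75 and 3.42 in May larvae, 27.1, 22.7 and 60.4 in January adults, and 40.5, 57.5 and 40.6 in May adults. Its larvae were separate by month and its adults overlapped, and the difference of 3.24 (standard error 0.52, adjusted p = 0.00221) holds. TRINITY_DN27539_c3_g1 had -3.19 (standard error 0.68, adjusted p = 0.00763), lost under 3 of the other scalings, and called only without January larva 2 or May larva 2 (adjusted p up to 0.0199 without others). The other 11 were not called. Glyceraldehyde-3-phosphate dehydrogenase 2 (TRINITY_DN22610_c0_g2) had -0.40 (standard error 0.48), the ATP synthase alpha subunit (TRINITY_DN18757_c0_g2) -0.59 (standard error 0.47), fructose-1,6-bisphosphatase 1 (TRINITY_DN21780_c1_g1) -0.83 (standard error 0.57) and acyl-CoA desaturase (TRINITY_DN19691_c0_g1) -1.17 (standard error 0.45, adjusted p = 0.0761). TRINITY_DN27537_c0_g1, at 1683 to 3321 in January larvae, 7.18 to 17.0 in May larvae, 787 to 2035 in January adults and 2.53 to 6.56 in May adults, had a season order shared by both stages and a difference of -0.43 (standard error 0.66, adjusted p = 0.652).

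Among unigenes without a named match in the part of the annotation used here, the 3 largest differences in each direction were as follows. TRINITY_DN20375_c0_g1 stood at 645, 238 and 617 in January larvae, 3.54, 0 and 0 in May larvae, 109.7, 31.2 and 665 in January adults, and 547, 1958 and 546 in May adults. The difference was 10.76 (standard error 1.45, adjusted p = 0.00143). TRINITY_DN20500_c0_g3 was at 228 to 250.3 in May adults and at most 23.2 in the other 9 insects (8.42, standard error 1.14), and TRINITY_DN16174_c0_g1 was listed at 0 in all 3 May larvae and in 2 January adults (8.11, standard error 1.12). All 3 hold. Below 0, TRINITY_DN22028_c0_g2, another member of the myrosinase assembly cluster, stood at 0.864, 43.5 and 13.2 in January larvae and 6924, 3745 and 10043 in May larvae (-9.80, standard error 1.39, adjusted p = 0.00153). It holds. TRINITY_DN20752_c2_g1, a hypothetical protein, had -9.74 (standard error 2.01, adjusted p = 0.00643), lost with FPKM as deposited and without May larva 1 or 3 or any 1 of the 6 adults (adjusted p up to 0.0197).

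Sequences were held here for 7 called unigenes, and 1 of them is among those 3. TRINITY_DN23919_c2_g2 stood at 9.66, 3.08 and 0.661 in January larvae, 4303, 2256 and 13777 in May larvae, 12.6, 38.0 and 118 in January adults, and 227, 23.3 and 40.0 in May adults. Larvae were lower in January without overlap, and the adult groups overlapped. The difference was -9.64 (standard error 1.51, adjusted p = 0.00202), and it holds. It is 1860 bases long and has a reading frame of 567 codons that is open to its end. The first 150 bases of that frame, positions 158 to 307 of the unigene, are shown because no annotation used here names it, with the start codon in capitals.
TRINITY_DN23919_c2_g2: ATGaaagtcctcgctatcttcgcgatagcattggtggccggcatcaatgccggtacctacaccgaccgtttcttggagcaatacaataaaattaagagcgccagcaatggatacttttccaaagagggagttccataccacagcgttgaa
The other 6 had differences of 1.86 to 3.59 above 0 (3 unigenes) and -4.53 to -2.91 below 0 (3 unigenes). Of these, the ERCC6-PGBD3 match TRINITY_DN20866_c0_g8, a fusion that includes a transposase, is the 1 that holds (2.35, standard error 0.39, adjusted p = 0.00273). It passed the filter in larvae only through the January larvae.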

How the data were processed

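The authors assembled the reads of *D. valens* without a genome with Trinity, mapped them back with Bowtie2 (version 2.3.5.1), used RSEM (version 1.2.31) for quantification and deposited FPKM for 58956 unigenes in each of 12 libraries. FPKM carry no read numbers, so depth and counting error are unknown, and precision comes from the spread among 3 insects (median SD 0.379 to 0.614 log2 units within a group). Libraries were scaled by the median of ratios over the 9529 unigenes above 0 in all 12, and log2(scaled FPKM + 1) was fitted with limma 3.58.1 (trend, 4 group means, no block) in R 4.3.3, two-sided, with Benjamini-Hochberg adjustment over 10726 unigenes. The median standard error was 0.681. The fit was tested on simulated data. Named unigenes are the 15 largest called differences in each direction with a named match, examples of each list, the primer unigenes, the trehalases, the 3 largest without a name in each direction and called unigenes with a sequence held here. Members and lists were chosen with earlier results of these data known. Figures were drawn with matplotlib 3.10.9. The authors' own test values were not used, but the set of genes they found changed in both stages supplied part of the names and list members. Runs with library 3 of the January larvae left out and the filter repeated, and the counts that stand under all scalings or all left-out libraries, were added after seeing the data.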

Additional observations from a re-analysis of the deposited data

Results flagged for a closer look

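The difference between the season differences of larvae and adults was itself tested, as the interaction term of limma with Benjamini-Hochberg adjustment over 10726 unigenes, and it passed for 499 unigenes above 0 and 724 below 0. The 3 largest named differences above 0 were Rab-23 (TRINITY_DN24882_c0_g1) with 5.64, transmembrane protein 35A (TRINITY_DN21631_c1_g1) with 5.34 and protein disulfide-isomerase A5 (TRINITY_DN24568_c0_g1) with 5.34 log2 units. The 3 largest below 0 were the FLO11-like unigene (TRINITY_DN22828_c3_g1) with -11.34, myrosinase 1 (TRINITY_DN22028_c0_g1) with -9.98 and the beta-N-acetylglucosaminidase (TRINITY_DN20829_c0_g1) with -9.78. With 3 insects a group, no single insect could be tested as standing apart within its group.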

How the results depend on the processing

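The counts of calls moved by over 1.5 times with the filter, the fit and the libraries. Without the filter, over 56982 unigenes, 113 were called (40 above 0, 73 below), and with array weights 3429 (1680 and 1749). At an adjusted p under 0.05 the count was 2959 (1390 and 1569). FPKM as deposited gave 1121 above and 103 below (median of all unigenes 0.98), and equal FPKM sums 1702 and 49 (median 1.40). Leaving out 1 library gave 405 to 1354 calls, 145 to 601 above 0 and 260 to 753 below 0, with medians of -0.08 to -0.01. Without both January larva 3 and May larva 1 there were 102 (39 and 63). Chosen after seeing the data, leaving out January larva 3 and repeating the filter gave 549 (113 and 436), 48 below 0 were called under all 5 scalings, and 132 above and 252 below with each library left out. With the replicate number as a block 653 were called (238 and 415), but the insects share only a number: deviations of the 18 same-number pairs correlated at -0.57 to 0.31, and 1 of 12 libraries was closest to its own number. The other alternatives stayed within 1.5 times. The cause of these movements was not tested. Over the named unigenes and alternatives, 791 results called above 0 kept their call and 160 lost it, 1091 below 0 kept it and 275 lost it, 29 gained one, and 0 turned direction. FPKM give no read numbers, so what depth limits is unknown.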
